A study of Mus musculus with 6 samples.

Results

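Bone morphogenetic protein (BMP) signalling through the endothelial receptor ALK1 is described here by 10 genes: the ligand genes Gdf2 (BMP9), Bmp10, Bmp2, Bmp4 and Bmp6, the receptor genes Acvrl1 (ALK1) and Bmpr2, the inhibitory SMAD genes Smad6 and Smad7, and the target gene Id1. Values below are listed in the order of replicates 1 to 3 of each group. The genes were chosen by symbol, all 10 were found among the 55401 genes of the count table, and all 10 passed the filter on low counts that left 17387 genes for testing. Gdf2 and Bmp10 passed it through the livers alone.

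The series held RNA sequencing of polyadenylated RNA from 3 tumours of a genetically engineered mouse model of epithelioid hemangioendothelioma (EHE), a cancer of endothelial cells, and from 3 livers. All samples came from C57BL6 mice. The tumours were taken from the peritoneal surface and the livers served as control tissue. The driver alleles, the promoter that directs them, the ages of the animals and whether each sample came from its own animal were not given in the sources used here. If samples of a group shared an animal, the p-values cover the spread within that animal and not the spread between animals. Tissue and tumour state differ together in the only comparison, and they cannot be told apart.

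BMP9 and BMP10 circulate in blood and bind ALK1 with the type II receptor BMPR2 on endothelial cells, with endoglin as co-receptor, and this signal is known for restraining vessel sprouting and keeping arteries and veins apart. The receptors phosphorylate SMAD1, SMAD5 and SMAD9, which enter the nucleus with SMAD4 and switch on genes such as Id1, Smad6 and Smad7. SMAD6 and SMAD7 then damp the signal. In liver, BMP9 and BMP10 are known to come from hepatic stellate cells, while sinusoidal endothelium makes BMP2 and BMP6, which drive hepcidin (Hamp) in hepatocytes and so control iron.

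RefSeq promoter windows (GRCm38.p6), from 250 bases before to 50 bases after the start of transcription, were found for 6 of the 10 genes. The 4 windows below are shown because they hold the letters of a motif searched for on both strands, which is in capitals. The Smad6 promoter, chr9:64022010-64022309 on the minus strand, holds the palindrome GTCTAGAC, to which SMAD proteins can bind, from base -4 to base 3 counted from the start at 0.
Smad6: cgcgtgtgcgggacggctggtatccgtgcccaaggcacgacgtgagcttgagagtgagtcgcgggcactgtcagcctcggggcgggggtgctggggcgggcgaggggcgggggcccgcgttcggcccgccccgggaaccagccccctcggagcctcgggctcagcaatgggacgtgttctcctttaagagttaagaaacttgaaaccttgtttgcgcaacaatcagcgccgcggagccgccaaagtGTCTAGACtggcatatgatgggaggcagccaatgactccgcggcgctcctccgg
Bmpr2, chr1:59764029-59764328 on the plus strand, holds the GC-rich SMAD element GGCGCC.
Bmpr2: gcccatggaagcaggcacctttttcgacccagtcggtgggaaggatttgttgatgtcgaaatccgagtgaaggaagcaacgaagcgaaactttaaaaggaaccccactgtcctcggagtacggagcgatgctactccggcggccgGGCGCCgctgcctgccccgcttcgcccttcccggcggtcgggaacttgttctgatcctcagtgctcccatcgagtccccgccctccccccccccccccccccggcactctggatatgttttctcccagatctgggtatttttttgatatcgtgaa
Bmp6, chr13:38345466-38345765 on the plus strand, holds the SMAD box CAGAC.
Bmp6: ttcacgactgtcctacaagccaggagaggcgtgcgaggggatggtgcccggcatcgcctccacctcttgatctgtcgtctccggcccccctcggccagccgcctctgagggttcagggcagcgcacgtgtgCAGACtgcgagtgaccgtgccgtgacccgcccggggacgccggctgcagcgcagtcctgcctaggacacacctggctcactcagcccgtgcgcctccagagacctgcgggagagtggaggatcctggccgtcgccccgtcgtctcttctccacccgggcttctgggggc
Bmp4, chr14:46390620-46390919 on the minus strand, holds CCGGAAG, an element of ETS factors, on the strand opposite to the gene.
Bmp4: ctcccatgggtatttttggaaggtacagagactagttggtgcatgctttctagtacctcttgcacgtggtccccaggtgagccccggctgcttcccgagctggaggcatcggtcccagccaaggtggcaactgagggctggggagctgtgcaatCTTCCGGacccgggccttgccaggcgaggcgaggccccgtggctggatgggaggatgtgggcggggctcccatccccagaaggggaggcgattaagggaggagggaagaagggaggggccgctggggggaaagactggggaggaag

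Of 32851 promoter windows of that length, 0.213% held GTCTAGAC, 11.9% GGCGCC, 49.6% CAGAC and 8.86% CCGGAAG. The TEAD motif GGAATG (14.7% of windows) and CAGGAAG, another ETS element (13.3%), were in none of the 6. The Gdf2 and Bmp10 windows held none of these 6 motifs. Some share letters: GTCTAGAC and CAGAC both end in AGAC, the ETS elements share GGAAG, and GGAATG shares GGAA with them. A match describes the letters and no binding was measured. The Bmpr2 and Bmp6 windows lie inside the annotated genes, which begin at bases 59763400 and 38345107, so these windows belong to later starts.

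Libraries held from 33881392 to 40277346 counts. The labelled tissues fitted their markers: 13 of 14 vascular endothelial markers were higher in tumours and none lower, with sums from 2408 to 4688 CPM (counts scaled to library size, with TMM factors for the composition of the libraries) against 183 to 233 in livers. Hepatocyte markers summed to 1.52 to 3.76 CPM in tumours, and Otc was at 0 in all of them, against 144253 to 212021 in livers. Tumour 2 had the lowest endothelial sum and the highest sum of skeletal muscle markers (10116 CPM, against 1370 and 2466 in tumours 1 and 3), while its macrophage sum was 1011 CPM (319 and 199 in tumours 1 and 3) and its adipocyte sum 163 CPM (36.6 and 8.68). Mesothelial markers were higher in tumours (4 of 5, with sums of 275 to 283 CPM against 4.13 to 32.0), as were adipocyte markers (3 of 4), and their part in the results was not tested. Liver 2 had counts for 33274 genes against 19767 and 19001 in livers 1 and 3.

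The ligand genes split, Bmp6 and Bmp4 being higher in tumours and Gdf2, Bmp10 and Bmp2 higher in liver, while both receptor genes were higher in tumours. Of the 10 genes, 4 rose in tumours (Bmp6, Acvrl1, Bmp4 and Bmpr2), 4 fell (Bmp10, Gdf2, Bmp2 and Smad6) and 2 did not pass (Smad7 and Id1) at an adjusted p under 0.05 in edgeR's quasi-likelihood test. Among all genes tested, 58.2% were called, 29.5% as higher and 28.7% as lower and nothing is read from the difference at 10 genes chosen by name. The groups did not overlap for 9 of the 10 genes, Id1 being the exception, against 68.2% of all genes tested. The median log2 fold change was -0.03 over the 10 genes and 0.10 over all genes. Without libraries 2 of both groups 4 rose and 5 fell.

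**Figure D1:**
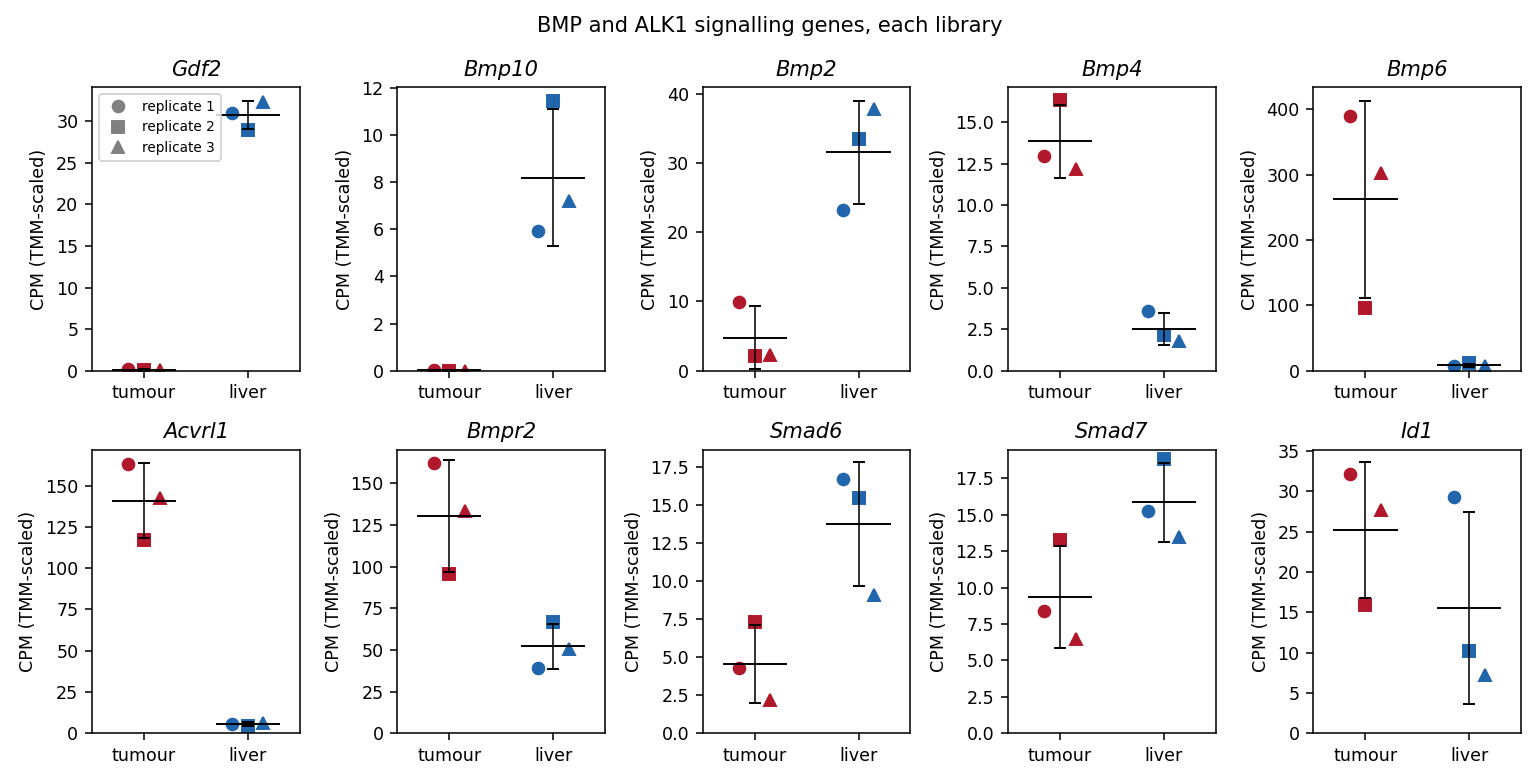
CPM scaled by TMM factors (y axis, linear, each panel with its own range) of the 10 genes in the 3 tumours and 3 livers (symbols are replicates, lines means, bars SD). Gdf2 and Bmp10 lie near 0 in tumours, Bmp6 and Acvrl1 near the axis in livers, and the Id1 values of the groups overlap.

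How libraries are scaled decides some of these calls. The TMM factors were 1.52 to 1.62 in tumours and 0.612 to 0.682 in livers, and scaling by library totals alone moved the median of all genes upwards by 1.28 on the log2 scale. That scaling called 10688 genes higher and 2172 lower (83.1% of calls higher, in place of 50.8%). With it 5 of the 10 genes were higher and 2 lower. Gdf2, Bmp10, Bmp4, Bmp6, Acvrl1 and Bmpr2 kept their direction and their call under every alternative in which they were fitted. Bmp2, Smad6, Smad7 and Id1 did not, as given with each. For Bmp6 some of these alternatives are no check, as given with it.

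Gdf2 encodes BMP9, the main circulating ligand of ALK1 (ENSMUSG00000072625, chromosome 14, 33941039 to 33947198 of GRCm38). It had 0.229, 0.0342 and 0.0962 CPM in the tumours and 30.9, 29.0 and 32.4 CPM in the livers. The 3 livers lay close together and far above every tumour. It changed by -7.96 on the log2 scale (SE 0.54, adjusted p = 3.99e-05 by edgeR), or -8.79 without tumour 1, from 14, 2 and 6 counts in tumours.

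Bmp10, the other high-affinity ligand of ALK1 and also a product of the heart (chromosome 6, 87428994 to 87437677), was detected in 1 tumour. It had 0.0327, 0 and 0 CPM in tumours 1 to 3, which is 2, 0 and 0 counts, and 5.92, 11.4 and 7.18 CPM in livers. The groups did not overlap, and liver 2 was the highest. Over pooled counts the liver to tumour ratio was 738 (95% exact binomial interval 203 to 6111, which covers counting error only). The fitted log2 fold change was -9.20 (SE 0.87, edgeR adjusted p = 0.000148) and -11.30 without tumour 1, the only tumour with counts.

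Stellate cell markers were mixed. Of 10 such markers 6 were lower and 1 higher in tumours, and their sum was 151 to 409 CPM in tumours and 519 to 663 in livers. Colec10 was at 0 counts in all tumours and Lrat (retinol esterification) fell by 8.80 on the log2 scale. The other lower ones changed less: Reln by -2.57, Ngfr by -2.25, Hand2 by -1.88 and Colec11 by -1.87. Hgf was the higher one (1.55), and Ecm1, Rgs5 and Pth1r did not pass. Heart muscle markers summed to 3.69 CPM at most in any library. Their part in the fall of Gdf2 and Bmp10 was not tested, and in bulk tissue fewer cells of a type and less RNA per cell cannot be told apart, here and for every gene below.

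Bmp2, a ligand of ALK3 made by liver sinusoidal endothelium (chromosome 2, 133552159 to 133562885), was lower in tumours. Its CPM was 9.99, 2.07 and 2.26 in the tumours and 23.3, 33.5 and 37.8 in the livers. Tumour 1 stood well above the other tumours but below every liver. Tumours differed from livers by -2.72 on the log2 scale (SE 0.65, adjusted p = 0.00994 by edgeR) and -3.85 without tumour 1. The call was lost with library totals alone (-1.46, edgeR adjusted p = 0.0672, alternatives from 3.16e-06 to 0.0672), where the tumour 1 value of 15.1 CPM exceeded the 14.7 of liver 1. Of 9 sinusoidal endothelial markers 4 were lower and 2 higher, none was at 0 in all tumours, and the sum was 574 to 835 CPM in tumours against 377 to 489 in livers. Flt4 alone had 624, 174 and 407 CPM in the tumours and 24.4, 53.2 and 40.9 in the livers, so the sum does not stand for the set. Stab2, Clec4g, Oit3 and Dnase1l3 were the lower ones, Lyve1 and Flt4 the higher ones, and Fcgr2b, Gpr182 and Mrc1 did not pass. Their part in the Bmp2 result was not tested.

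Bmp4, a ligand with broad roles in mesoderm and vessels (chromosome 14, 46383520 to 46390669), rose. It had 13.0, 16.4 and 12.2 CPM in the tumours and 3.61, 2.17 and 1.82 CPM in the livers. Every tumour held over 3 times the CPM of every liver. By edgeR its log2 fold change was 2.45 (SE 0.33, adjusted p = 0.000767).

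Bmp6, the ligand through which liver endothelium senses iron (chromosome 13, 38345107 to 38500302), was the most abundant of these ligand genes in tumours. It had 389, 95.6 and 302 CPM in the tumours and 7.50, 11.1 and 6.85 CPM in the livers. Tumour 2 was the lowest tumour, yet it lay far above each liver. It changed by 4.95 on the log2 scale (SE 0.58, adjusted p = 0.000402 by edgeR) and 5.61 when libraries 2 were left out of both groups. The authors' FPKM values (fragments scaled by transcript length and library size) listed Bmp6 at 0 in all 3 livers, where the count table held 185, 256 and 166 counts. FPKM therefore gives no liver level, and the fits on FPKM are no check of the Bmp6 rise. Bmp6 shares 224 exonic bases with Txndc5 on the opposite strand, and whether counting used strand was not stated.

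Acvrl1 encodes ALK1, the type I receptor for BMP9 and BMP10 that is nearly restricted to endothelium and is mutated in hereditary haemorrhagic telangiectasia (chromosome 15, 101128522 to 101145336). It had 163, 117 and 142 CPM in the tumours and 5.88, 4.20 and 6.44 CPM in the livers. The values within each group lay close together and the groups stood far apart. Tumours differed from livers by 4.68 on the log2 scale (SE 0.25, adjusted p = 1.67e-05 by edgeR). Among 14488 genes with a mean of 1 CPM or more, those whose log2 profile over the 6 libraries was most like that of Acvrl1 were Sh3bp4 (r = 0.9993), Dusp8 (r = 0.9993) and Itga6 (r = 0.9989), with log2 fold changes of 3.61, 5.70 and 4.38. These coefficients describe 2 groups of libraries and mostly carry the difference between them.

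Bmpr2, the type II receptor that partners ALK1 and is mutated in heritable pulmonary arterial hypertension (chromosome 1, 59763400 to 59879014), rose less. Its CPM was 162, 95.5 and 133 in the tumours and 39.1, 66.5 and 50.8 in the livers. The lowest tumour was above the highest liver. By edgeR its log2 fold change was 1.32 (SE 0.28, adjusted p = 0.0058). A ratio within a library is free of the library scaling. Scaled by length of merged exons, the Acvrl1 to Bmpr2 ratio within a library was 4.23, 5.18 and 4.50 in the tumours and 0.634, 0.266 and 0.535 in the livers. ALK1 transcripts therefore exceeded those of BMPR2 in all tumours and lay below them in all livers.

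Smad6, an inhibitory SMAD that acts mainly on BMP receptors (chromosome 9, 63953076 to 64022059, with the promoter printed above), was lower in tumours. It had 4.27, 7.28 and 2.16 CPM in the tumours and 16.7, 15.5 and 9.08 CPM in the livers. The groups did not overlap, although tumour 2 and liver 3 came close. It changed by -1.59 on the log2 scale (SE 0.47, adjusted p = 0.0244 by edgeR). The call was lost without tumour 1 (-1.53, edgeR adjusted p = 0.0698), without liver 1 (-1.40, edgeR adjusted p = 0.0861) and without liver 2 (-1.48, edgeR adjusted p = 0.067). With library totals alone it was -0.33 (edgeR adjusted p = 0.549, alternatives from 0.000235 to 0.549), and on the authors' FPKM scale the groups overlapped, with 2.17, 3.37 and 1.05 in the tumours and 3.53, 3.15 and 1.92 in the livers.

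Smad7, an inhibitory SMAD of both the BMP and the TGF-beta branches (chromosome 18, 75367529 to 75395935), did not pass the test. It had 8.38, 13.3 and 6.48 CPM in the tumours and 15.3, 18.8 and 13.5 CPM in the livers. The lowest liver was barely above the highest tumour. Tumours differed from livers by -0.76 on the log2 scale (SE 0.31, adjusted p = 0.0687 by edgeR) and -1.09 without tumour 2, where it passed (edgeR adjusted p = 0.00784), as it did when libraries 2 were left out of both groups (-0.94, edgeR adjusted p = 0.0168). Its direction turned with library totals alone (0.51, edgeR adjusted p = 0.185) and with limma on log2(FPKM + 1) (0.37, adjusted p = 0.154), so no direction is given for it. The Smad7 to Smad6 ratio per length within a library, free of scaling, was 1.39, 1.29 and 2.12 in the tumours and 0.650, 0.862 and 1.05 in the livers.

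Id1, an inhibitor of basic helix-loop-helix factors and a direct target of BMP-activated SMADs (chromosome 2, 152736251 to 152737410), did not pass the test either. It had 32.2, 15.9 and 27.6 CPM in the tumours and 29.2, 10.2 and 7.26 CPM in the livers. The groups overlapped because liver 1 stood at about the level of tumours 1 and 3. By edgeR its log2 fold change was 0.70 (SE 0.54, adjusted p = 0.304). It was 1.56 without liver 1, with a call (edgeR adjusted p = 0.0197), and passed with no filter on low counts (0.81, edgeR adjusted p = 0.0318). With library totals alone it was 1.98 (edgeR adjusted p = 0.0148, alternatives from 0.0106 to 0.589) and the groups did not overlap, the CPM by totals being 48.8, 24.4 and 44.8 in the tumours and 18.5, 6.94 and 4.44 in the livers. The authors' FPKM values were 54.2, 25.8 and 48.2 in the tumours and 21.3, 6.98 and 5.20 in the livers, also without overlap, and limma on log2(FPKM + 1) gave 2.01 (adjusted p = 0.0106). Genes with the profile most like Id1 were Gm5963 (r = 0.979), Smyd2 (r = 0.957) and Pcnx4 (r = 0.955), whose log2 fold changes were between 0.22 and 0.30. They are the nearest 3 of 14488 genes over 6 libraries, and a search of that size can give such coefficients without any link to Id1.

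**Figure D2:**
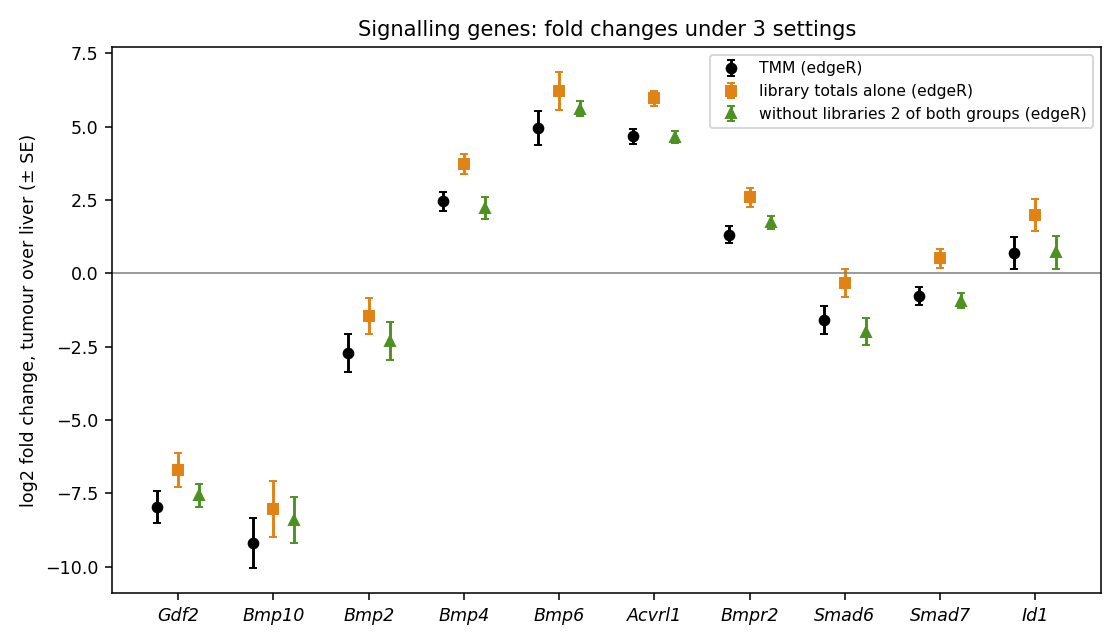
Log2 fold change of tumours over livers (y axis, bars SE) for the 10 genes with TMM scaling, with library totals alone and without libraries 2 of both groups. Library totals move each gene upwards, Smad7 from -0.76 to 0.51, while Gdf2, Bmp10, Bmp4, Bmp6, Acvrl1 and Bmpr2 stay on their side of 0.

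Within each tissue the order of the genes by level also differed. On CPM per kilobase of merged exons, the tumours had Bmp6 at 67.3 ± 38.7 and Acvrl1 at 33.0 ± 5.35 (SD, n = 3), then Id1 at 21.8 ± 7.25. The ranges of Bmp6 and Acvrl1 overlapped, since tumour 2 had 24.5 for Bmp6 and 27.5 for Acvrl1, and Id1 in tumour 1, at 27.7, was above both of these values. Bmpr2 (7.25 ± 1.87) and Bmp4 (6.16 ± 0.989) followed and overlapped, as did Smad7 (2.07 ± 0.774), Smad6 (1.43 ± 0.802) and Bmp2 (1.34 ± 1.27). Gdf2 (0.0401 ± 0.0333) and Bmp10 (0.00243 ± 0.00421) came last.

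In livers Id1 (13.4 ± 10.3), Gdf2 (10.3 ± 0.572) and Bmp2 (8.87 ± 2.1) led with overlapping ranges, on the same scale. Smad6 (4.29 ± 1.27), Smad7 (3.51 ± 0.598), Bmpr2 (2.90 ± 0.765) and Bmp6 (2.18 ± 0.586) formed a run in which each neighbour overlapped the next. Bmp10 (1.82 ± 0.645), Acvrl1 (1.29 ± 0.273) and Bmp4 (1.13 ± 0.423) were the lowest by mean, but the range of Bmp10, from 1.32 to 2.55, overlapped those of Bmp6 and Bmpr2. The authors' FPKM means gave the same order in tumours. In livers they put Acvrl1 before Bmp10, and Bmp6 was listed at 0. Within single libraries the Bmp6 to Bmp2 ratio per length was 35.5, 42.1 and 122 in the tumours and 0.294, 0.302 and 0.165 in the livers, and the Bmp2 to Bmp4 ratio was 0.488, 0.0799 and 0.117 in the tumours and 4.08, 9.76 and 13.2 in the livers.

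**Figure D3:**
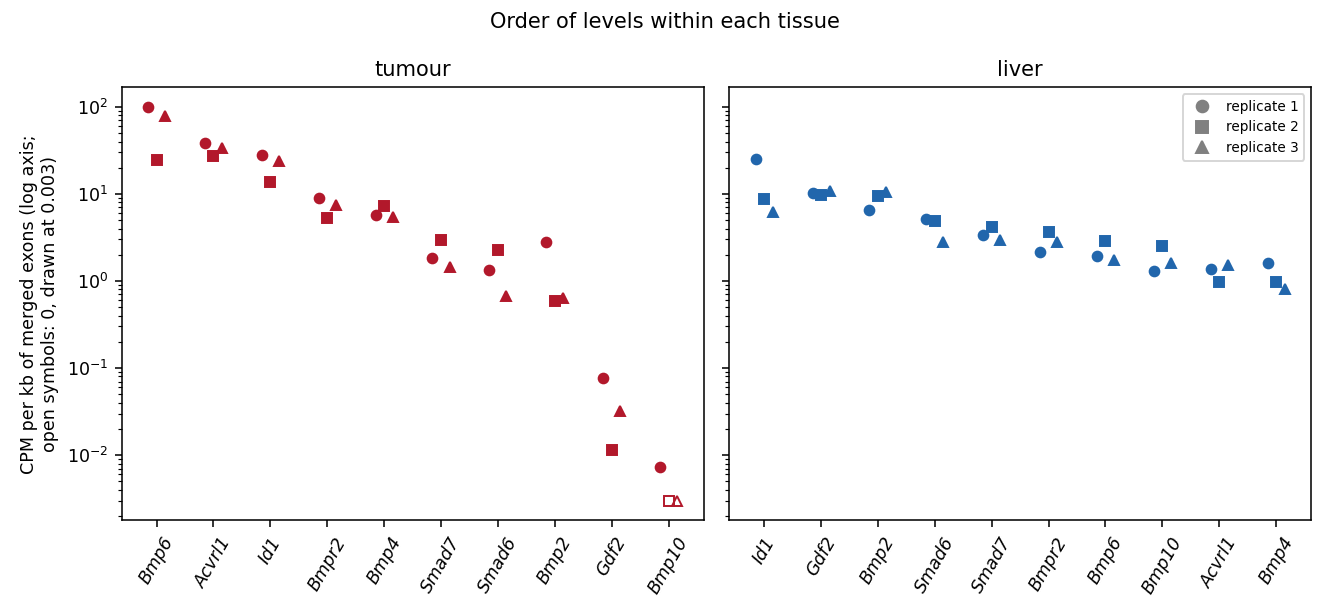
CPM per kilobase of merged exons (log axis) of the 10 genes in tumours (left) and livers (right), ordered by the mean in each tissue, with 1 symbol per library. Bmp6 and Acvrl1 lead in tumours, while Id1, Gdf2 and Bmp2 lead in livers.

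Because the tumours held far more endothelial transcripts, each gene was also set against the summed CPM of the 14 vascular endothelial markers, a ratio within a library that no scaling changes. Acvrl1 was 3.48%, 4.87% and 3.50% of that sum in tumours 1 to 3 and 3.21%, 1.90% and 2.76% in livers. The lowest tumour was just above the highest liver, so Acvrl1 and the marker sum differed between the tissues by a similar factor. Single markers did not share that factor. Their log2 fold changes ran from -0.28 (Sox17, no call) and 1.57 (Kdr) to 5.34 (Pecam1) and 5.62 (Cldn5). The ratios here and below therefore depend on which markers make up most of the sum. Bmp6 was 8.30%, 3.97% and 7.44% in tumours and 4.10%, 5.02% and 2.94% in livers, with overlap.

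Bmpr2, Id1, Smad6 and Smad7 were lower against this sum in tumours than in livers. So were Gdf2, Bmp10, Bmp2 and Bmp4, although Bmp4, like Bmpr2, was higher in tumours by CPM. Bmp4 was 0.419% ± 0.226 of the sum in tumours and 1.24% ± 0.639 in livers (SD, n = 3), without overlap. Bmpr2 was 3.57% ± 0.356 in tumours and 24.4% ± 4.93 in livers (SD, n = 3). Id1 was 0.686%, 0.659% and 0.680% in tumours and 16.0%, 4.61% and 3.11% in livers. The tumour values of Id1 lay within a narrow band although its CPM ranged from 15.9 to 32.2, whereas livers were spread widely. Smad6 was 0.149% ± 0.134 and 6.67% ± 2.62, and Smad7 was 0.296% ± 0.221 and 7.55% ± 1.53, tumours and livers in that order. Tumour 2, with the lowest endothelial sum, had the highest share of both among the tumours. These ratios are descriptions and were not tested, and genes that other cells express, as liver cells do, need not follow an endothelial sum.

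**Figure D4:**
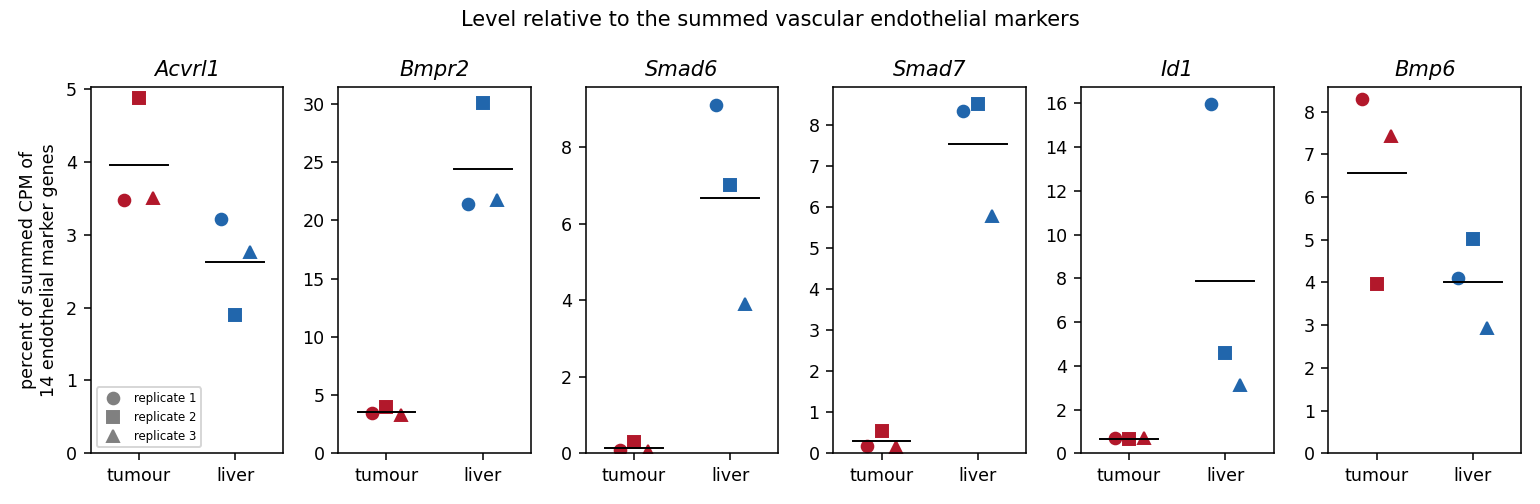
Level of 6 genes as a percent of the summed CPM of 14 endothelial markers (y axis, linear, each panel with its own range) in each library, with lines at the group means. Acvrl1 is near 4% in tumours and near 3% in livers, and the Id1 values of the tumours lie between 0.659% and 0.686%.

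Around these genes, 95 other genes of the BMP pathway were taken by role, of which 83 were tested. There were 42 higher in tumours, 19 lower and 22 that did not pass, with a median log2 fold change of 1.39. All genes tested, with 29.5% higher, 28.7% lower and a median of 0.10, are the background for this count and for those of each role. The lists were chosen with earlier results of these data known, so nothing is read from their difference to that background. With library totals alone 55 were higher and 11 lower, and 46 and 20 when libraries 2 were left out of both groups.

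Among the other ligand genes, 14 of 21 were tested, with 6 higher, 4 lower and 4 without a call (median 0.25; 7 higher and 3 lower with library totals alone). Gdf10 (BMP3b), a BMP3-like ligand, had 544, 119 and 625 CPM in the tumours and 14.2, 11.3 and 12.2 in the livers (log2 fold change 5.10, SE 0.65, adjusted p = 0.000609 by edgeR). Mstn (myostatin, a skeletal muscle product) had 0.508, 6.17 and 1.43 CPM in tumours, in the order of the muscle marker sums, and 3 counts in all livers together, so that pooled counts were 63.4 times as dense in tumours (95% exact binomial interval 21.6 to 309, for counting error alone). Its fitted log2 fold change of 5.91 was 4.43 without tumour 2 and 9.96 without liver 2, which held all 3 counts, and limma-voom did not call it (adjusted p = 0.0511, alternatives from 5.14e-10 to 0.0511). The part of muscle tissue in this value was not tested. The activin chains of hepatocytes were nearly absent from tumours, where hepatocyte markers summed to 3.76 CPM at most. The part of hepatocytes in this was not tested. Inhbc was at 0 counts in all tumours, at least 1600.0-fold lower with a floor of 3 counts per library. Inhbe held 2 counts, so that it was 9337 times as dense in livers (95% exact binomial interval 2584 to 77110.5). Both bounds cover counting error only. The 2 counts of Inhbe were in tumour 2, and its fitted log2 fold change of -12.85 was -14.97 without that library. Bmp5 fell by 5.33 (SE 0.80; -6.33 without tumour 2).

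Other receptors and co-receptors gave 12 tested genes of 13, with 6 higher, 2 lower and 4 that did not pass (median 1.30; 8 higher and none lower with library totals alone). Endoglin (Eng), the ALK1 co-receptor, had 578, 400 and 533 CPM in the tumours and 83.5, 107 and 101 in the livers (log2 fold change 2.37, SE 0.25, adjusted p = 0.000223 by edgeR). Rgma, a BMP co-receptor of the repulsive guidance family, rose by 3.88 (SE 0.42), and Neo1 (neogenin), its receptor, by 2.72 (SE 0.32). The fall of the activin type II receptor Acvr2a by 1.34 (SE 0.23) was lost with library totals alone (-0.07, edgeR adjusted p = 0.819). Bmpr1a (ALK3) fell by 1.30 (SE 0.42). Its call was lost with library totals alone (-0.02, edgeR adjusted p = 0.972) and without any single library except tumour 2 (edgeR adjusted p from 0.0634 to 0.0962), while without tumour 2 it was -1.97 (edgeR adjusted p = 0.000104).

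The SMADs and their regulators were all tested, 15 of 15, with 6 higher, 3 lower and 6 that did not pass (median 0.42; 12 higher and 2 lower with library totals alone). Smad1 had 126, 146 and 200 CPM in the tumours and 23.4, 21.8 and 17.2 in the livers (log2 fold change 2.92, SE 0.25, adjusted p = 8.37e-05 by edgeR), and Smad5 rose by 1.44 (SE 0.18). Smad9, the third BMP-activated SMAD, went the other way, with 0.589, 0.581 and 0.160 CPM in tumours and 10.8, 9.23 and 10.4 in livers, and its log2 fold change was -4.51 (SE 0.54, adjusted p = 0.000443 by edgeR). Smurf1, a ubiquitin ligase that degrades BMP SMADs, rose by 1.87 (SE 0.31), and Tob1, an antiproliferative protein that can bind SMADs, fell by 2.49 (SE 0.34).

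Antagonists and processing proteins outside the cell gave 22 tested genes of 25, with 11 higher, 5 lower and 6 that did not pass. Their median was 2.05, or 1.97 with Grem1, at 0 counts in livers, set at its bound. Library totals alone gave 14 higher and 2 lower. Fstl1, a follistatin-like protein of mesenchyme, had 1107, 668 and 1345 CPM in the tumours and 8.35, 7.28 and 5.94 in the livers (log2 fold change 7.18, SE 0.42, adjusted p = 2.22e-05 by edgeR). Fstl3, which binds activins, rose by 8.44 (SE 0.60; 9.11 without liver 2). Fibroblast markers moved in the same direction, 5 of 6 being higher, with sums of 1308 to 2156 CPM in tumours and 368 to 454 in livers and none at 0, and their part was not tested. Tmprss6, a liver protease that cleaves hemojuvelin, fell by 11.67 (SE 0.40).

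Other targets of BMP and ALK1 signalling gave 20 tested genes of 21, with 13 higher, 5 lower and 2 that did not pass (median 2.74; 14 higher and 4 lower with library totals alone). Gata2, an endothelial and blood cell factor, had 197, 105 and 221 CPM in the tumours and 1.22, 1.30 and 1.32 in the livers (log2 fold change 7.09, SE 0.37, adjusted p = 1.67e-05 by edgeR). Unc5b, a netrin receptor of vessels, rose by 5.39 (SE 0.59). The lower targets were Hamp, Hamp2, Id2, Id4 and Atoh8. Hamp (hepcidin) had 8 counts in all tumours together and 3287, 1378 and 1233 CPM in livers 1 to 3, with a log2 fold change of -15.35 (SE 0.81; -14.74 without liver 1). Its copy Hamp2, which can share reads with it, was at 0 counts in all tumours, at least 3703-fold lower with a floor of 3 counts per library (counting error only). The Hamp2 level in livers was 158, 349 and 43.3 CPM, the bound was 2029-fold without liver 2, and its call was lost with no filter on low counts (edgeR adjusted p = 0.0713). Id2 fell by 2.43 (SE 0.37) and Atoh8, a SMAD target of liver and endothelium, by 3.63 (SE 0.42). Id3 had 42.0, 55.1 and 45.2 CPM in tumours and 104, 35.8 and 34.1 in livers, with no call (log2 fold change -0.29, edgeR adjusted p = 0.6) and a direction that turned with library totals alone (1.00), with limma on log2(FPKM + 1) (1.14, adjusted p = 0.048) and without liver 1 (0.47).

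**Figure D5:**
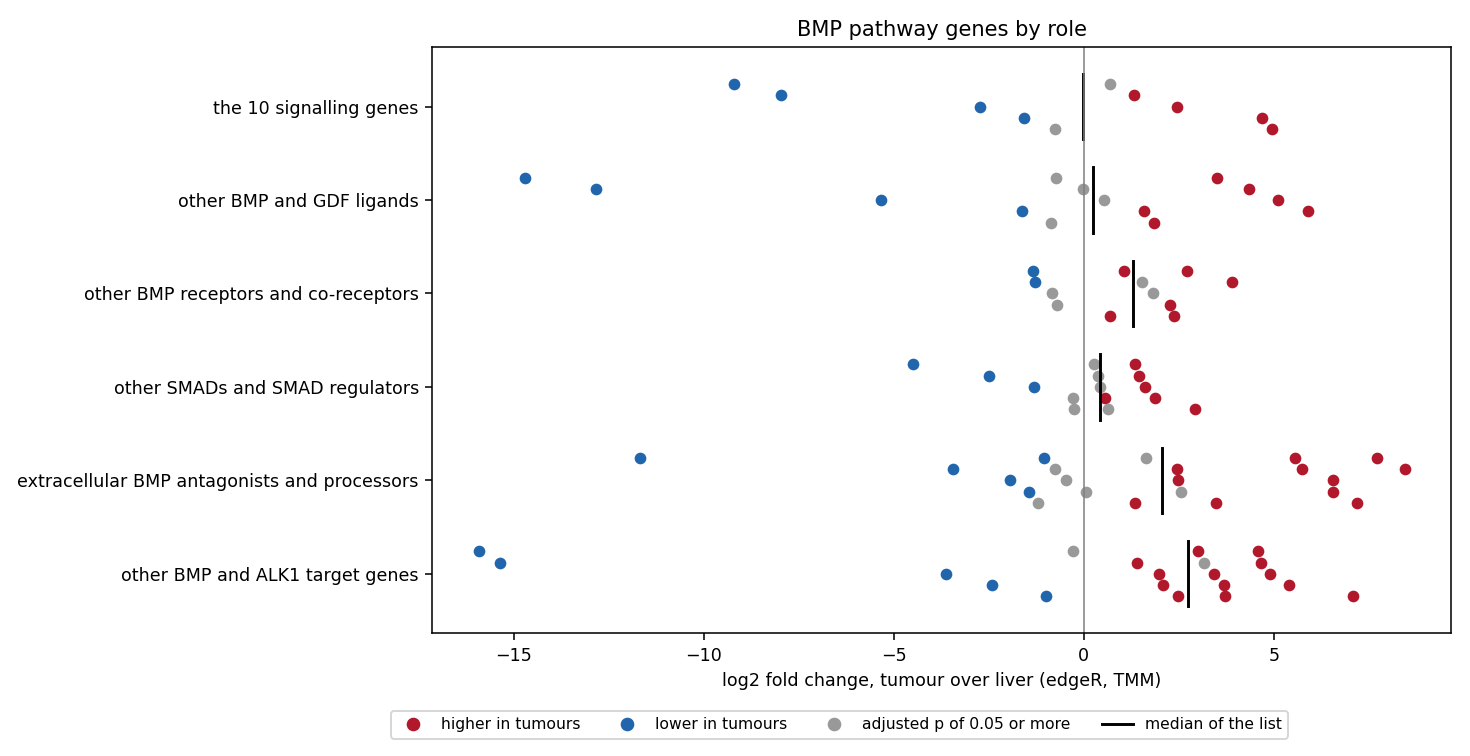
Log2 fold change of tumours over livers (x axis, edgeR with TMM scaling) of each tested gene by role, with red for higher, blue for lower and grey for genes that did not pass, and a black line at the median. Antagonists and targets have medians of 2.05 and 2.74, and Hamp, Hamp2, Inhbc, Inhbe and Tmprss6 lie at the far left.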

How the data were processed

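Polyadenylated RNA of 3 tumours and 3 livers was measured, and samples were grouped by their titles. The count table, deposited by the authors, holds whole-number counts per Ensembl gene. The counting tool, annotation and strand setting were not given in the sources used here. The submitters' processing notes name HISAT2 2.1.0, Cufflinks and mm10 without their roles, and the authors' FPKM values are in tables whose columns carry Cufflinks' names. Of the values between 1 and 10 counts, 55.0% to 70.7% per library were even, so that mates may each have been counted, which would make counting intervals too narrow. Names came from the files for 55188 genes and from a reference table for 213. Where an FPKM identifier was repeated (53 cases), the most abundant row was used. An FPKM of 0 stood beside at least 100 counts for 289 to 470 genes a library. Coordinates and merged exon lengths are those of GENCODE M21 (GRCm38, the assembly of mm10).

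With edgeR 4.0.16 in R 4.3.3, filterByExpr kept 17387 genes, libraries were scaled by TMM, and a robust quasi-likelihood fit without covariates compared the groups. P-values were adjusted by Benjamini-Hochberg over all genes tested and called under 0.05. A standard error is the size of the log2 fold change over the root of its F statistic. The chi-square per degree of freedom between libraries of a group was 95.8 or more, so none was counted as a duplicate. The fits were tested on simulated counts with few changed genes, as many up as down. That test does not cover data in which 58.2% of genes are called. The members and gene lists were chosen with earlier results of these data known. Beside the 10 genes, the text names, from each list, the 2 called genes that rose most and the 2 that fell most, given a mean of 1 CPM or more in a group, and the 3 genes closest in profile to Acvrl1 and Id1 on log2(CPM + 0.5). A gene that this rule names is not reported here. Eng, Smad5, Id2, Id3, Id4, Atoh8, Bmp5 and Hjv were named after their values were seen, and so were the motifs. Groups at 0 counts have a bound from 3 counts per library, and groups with 1 to 3 counts a ratio with a 95% exact binomial interval. Alternatives were RLE size factors, library totals, no filter, a filter at 1 CPM in 3 libraries, limma-voom (limma 3.58.1), DESeq2 1.42.0, limma on log2(FPKM + 1) and log2(FPKM + 0.1) where 3 libraries reached an FPKM of 1, a replicate block and leaving out each library. Leaving out libraries 2 of both groups, and CPM per kilobase, were chosen after seeing the data.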

Additional observations from a re-analysis of the deposited data

How the results depend on the processing

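Among all genes, 5137 were higher and 4982 lower in tumours. Counts moved by over 1.5 times under 3 settings. With library totals alone 10688 genes were higher and 2172 lower, with limma on log2(FPKM + 1) 8613 and 2031, and with limma on log2(FPKM + 0.1) 8608 and 2019. Under each of these 3 settings 2 of the 10 genes were lower, in place of 4, and 11 of the other pathway genes, in place of 19. The 2 lower genes were Gdf2 and Bmp10 with library totals, and Gdf2 and Bmp2 with both FPKM fits. Bmp10 did not pass the FPKM filter and was not fitted there. The median of all genes moved by 1.28, 1.07 and 1.20 on the log2 scale. Library totals changed the scaling alone, while the FPKM fits changed the measure, filter, pseudocount and test together, so that single genes moved unequally (Gdf2 to -2.70 with a pseudocount of 1). Directions turned for Smad7 (0.51, 0.37 and 0.47 in that order), Id3 (1.00, 1.14 and 1.17, and from -0.55 to 0.47 leaving out 1 library), Acvr2a (0.025 and 0.030 with the FPKM fits) and Hjv (0.55 with library totals). Apart from these 3 settings, RLE factors, both filters, DESeq2 and limma-voom kept all counts within 1.5 times.

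Leaving out 1 library at a time gave 4201 to 5150 higher and 4286 to 5178 lower genes, 4 to 5 of the 10 genes higher and 3 to 5 lower, and 39 to 43 pathway genes higher and 16 to 21 lower. Same-numbered samples did not deviate together (correlations of deviations -0.05, -0.02 and -0.02), and differently numbered ones had -0.08 to 0.11. Whether the numbers pair samples stays unknown, since tissues of a shared animal need not deviate together. With a replicate block 4516 genes were higher and 4574 lower, and Smad7 passed (-0.81, edgeR adjusted p = 0.0353). Depth limits Gdf2 and Bmp10 in tumours, at 22 and 2 counts in all.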

Other observations

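Gdf2 and Gdf10 are neighbours on chromosome 14, on the same strand and 3055 bases apart in the GENCODE annotation of GRCm38, and they changed in opposite directions, by -7.96 and 5.10 on the log2 scale. The pair was picked after their values were seen.

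Liver 1 had the highest Hamp of the livers (3287 CPM, against 1378 and 1233 in livers 2 and 3), and also the highest Id1 (29.2 against 10.2 and 7.26), Id2 (233 against 102 and 121), Id3 (104 against 35.8 and 34.1) and Atoh8 (36.5 against 31.9 and 29.9). Bmp6 was not highest there (7.50 against 11.1 and 6.85 CPM), nor was Bmp2 (23.3 against 33.5 and 37.8). Other targets did not peak there, among them Hamp2 (158 against 349 and 43.3), Id4 (4.75 against 5.07 and 3.38) and Smad7 (15.3 against 18.8 and 13.5). Of the 20 tested targets outside the 10 genes, 8 were highest in liver 1, 6 in liver 2 and 6 in liver 3. The named genes were chosen after their values were seen, and with 3 livers the values are given without a test.

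Hjv (hemojuvelin), a co-receptor made by hepatocytes and skeletal muscle, had 12.3, 112 and 21.3 CPM in tumours 1 to 3, in the order of the muscle marker sums (1370, 10116 and 2466 CPM), and 88.4, 97.0 and 52.2 in livers. It did not pass (log2 fold change -0.71, edgeR adjusted p = 0.467) and was -2.23 without tumour 2 (edgeR adjusted p = 0.00155). The part of muscle in it was not tested.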
